A study of Equus caballus with 8 samples.

Results

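The genes described here encode the machinery that carries sodium across epithelial membranes: the 3 main subunits of the epithelial sodium channel ENaC (SCNN1A, SCNN1B, SCNN1G), 2 beta subunits of the sodium pump (ATP1B1, ATP1B3), 3 FXYD proteins that tune the pump (FXYD2, FXYD3, FXYD4), and the sodium, potassium and chloride cotransporter SLC12A2. The 9 genes were named by function and matched by symbol to NCBI Gene IDs. All 9 are among the 24942 genes of the count table, and 8 of them are among the 15342 that passed a filter on low counts. FXYD2 did not pass it. No gene sequence was used here.

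ENaC lets sodium enter an epithelial cell from the lumen, and the sodium pump expels it on the opposite side, so that sodium and water leave the lumen. A pump is made of a catalytic alpha subunit and a beta subunit, which the alpha subunit needs to fold and to reach the membrane, and an FXYD protein can join the pair and alter its affinity for ions. SLC12A2, also known as NKCC1, loads the cell with chloride for secretion towards the lumen. In the uterus, the balance between sodium absorption and chloride secretion is known to set the volume and ion content of the fluid that surrounds the conceptus.

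The samples were endometrial biopsies of 4 normally cycling Bavarian Warmblood mares, taken once in pregnancy and once in a cycle without it, both at Day 12, so that 4 pregnant and 4 cyclic libraries formed 4 pairs. By the labels' protocols human chorionic gonadotropin was given to induce ovulation, mares were inseminated with semen of a single stallion, pregnancy was recognised by ultrasound from the embryonic vesicle, and the uterus was flushed before the biopsy was taken. Whether this insemination covers the cycles without a pregnancy is not spelled out there, and no ages are given. A biopsy holds epithelium, stroma, vessels and immune cells together, so fewer cells of a type and less RNA per cell cannot be told apart. Library totals ran from 15.5 to 16.7 M counts in 7 libraries and reached 9.81 M in the pregnant library of mare 1.

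Between the cycle and pregnancy, the sodium transport genes moved in opposite directions. SLC12A2 fell 1.74-fold, FXYD4 fell 5.16-fold and ATP1B1 fell 1.26-fold, while the channel subunit SCNN1G rose 1.71-fold and ATP1B3 rose 1.29-fold. Of the 8 tested genes, 2 rose and 3 fell at an adjusted p below 0.05, and 3 did not pass (SCNN1A, SCNN1B, FXYD3). Over all 15342 genes, 16.7% were called in either direction, 8.53% higher and 8.19% lower. With library totals in place of TMM scaling, which trims extreme genes before libraries are compared, 62.1% of the calls over all genes were higher in pregnancy, against 51.0% with it. The median log2 fold change was 0.05 over the 8 genes and 0.00422 over all genes, and the median of its absolute size was 0.40 and 0.17. The comparison was made within mares. In an edgeR fit without the mare as replicate block 0 of the 8 genes passed (4 at an unadjusted p under 0.05), with an adjusted p of 0.0550 for FXYD4, 0.0717 for ATP1B3, 0.105 for SLC12A2, 0.132 for ATP1B1 and 0.613 for SCNN1G.

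**Figure D1:**
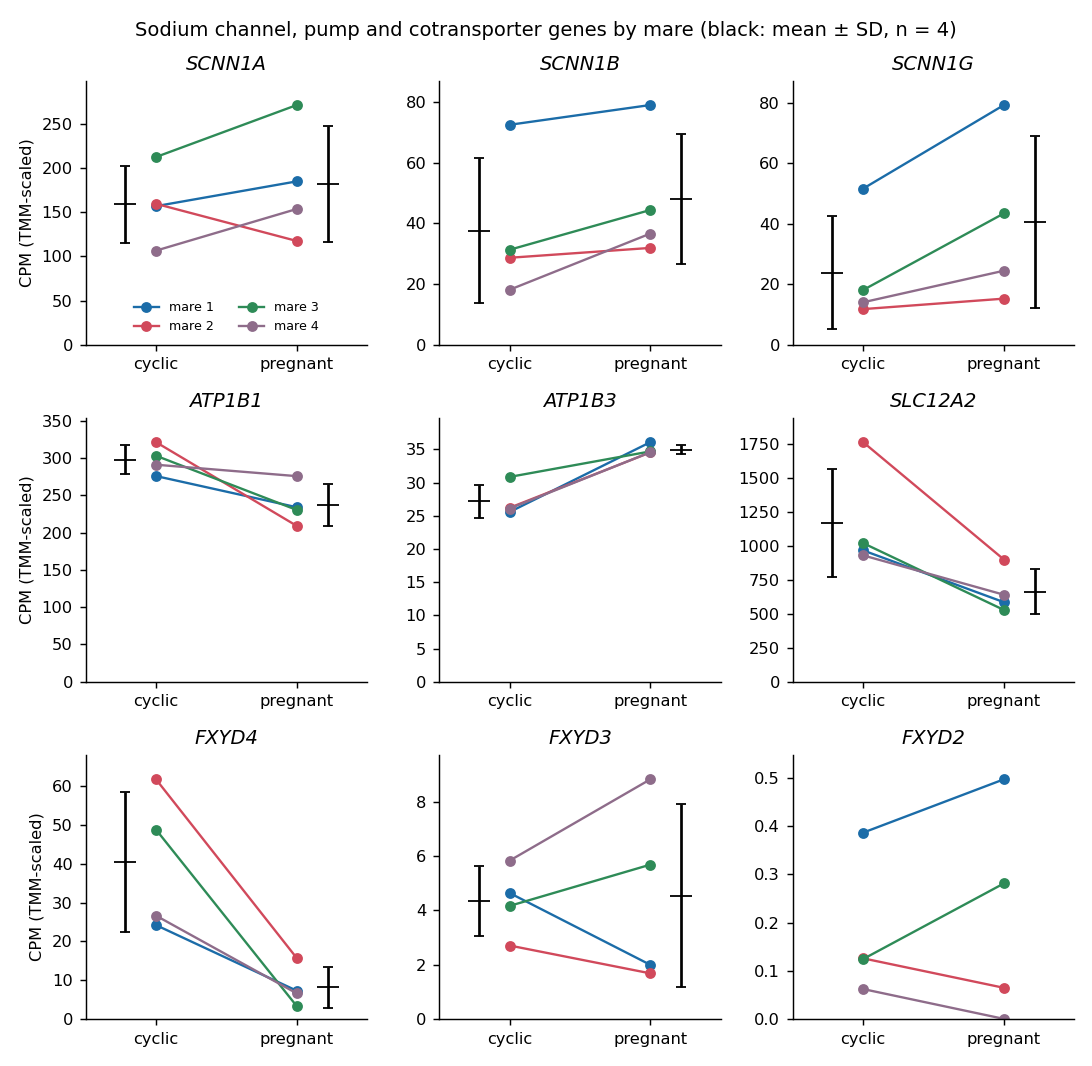
CPM (counts scaled to library size by TMM, each axis from 0) of the 9 genes in the cyclic and the pregnant library of each mare, joined by a line per mare, with the group mean ± SD in black for the 8 tested genes. All 4 lines fall for SLC12A2, FXYD4 and ATP1B1 and all 4 rise for SCNN1G, SCNN1B and ATP1B3, while those of SCNN1A, FXYD3 and FXYD2 go both ways.

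SCNN1A (Gene ID 100059623) encodes the alpha subunit, without which the channel conducts little. Its level in CPM (counts scaled to library size) was 157, 160, 213 and 107 in the cyclic libraries of mares 1 to 4, and 185, 117, 272 and 154 in the pregnant ones. It was higher in pregnancy in 3 mares and lower in mare 2, and the groups overlapped. Its log2 fold change was 0.17 ± 0.16 (SE; 95% interval -0.20 to 0.54; adjusted p = 0.515), so a change between a fold of 0.870 and one of 1.46 lies within the interval. Without mare 2 the value was 0.36 (adjusted p = 0.0320), past the threshold.

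SCNN1B (100069008) encodes the beta subunit, which together with gamma brings the channel to the surface in number. The cyclic libraries of mares 1 to 4 had 72.5, 28.7, 31.3 and 18.1 CPM, the pregnant ones 79.0, 31.9, 44.4 and 36.6 CPM. Each mare was higher in pregnancy than in her own cycle, but mare 1 stood above the other 3 mares in both states, so the groups overlapped. The log2 fold change was 0.44 ± 0.15 (SE; 95% interval 0.09 to 0.79), which missed the threshold (adjusted p = 0.0920). It passed in DESeq2 (0.0415) and in the likelihood ratio test (0.0406).

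SCNN1G (102147597), the gamma subunit, whose cleavage by proteases opens the channel, was the ENaC gene that passed. Its cyclic levels were 51.6, 11.8, 18.1 and 14.0 CPM and its pregnant levels 79.2, 15.2, 43.4 and 24.5 CPM. Again each mare was higher in pregnancy, and again mare 1 was the highest in both states, with a cyclic level above every pregnant level but her own. The log2 fold change was 0.77 ± 0.13 (SE; 95% interval 0.47 to 1.08; adjusted p = 0.00635). The call held in each fit that left out 1 mare, with an adjusted p from 0.00773 to 0.0314.

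Differences between mares were looked at apart from the state. A test of the mare terms in the same model passed for 15.9% of all genes and for 3 of the 8 described here: SCNN1G (adjusted p = 9.15e-04), SLC12A2 (0.0102) and SCNN1B (0.0112). SCNN1G spanned 4.39-fold between mares in the cycle and 5.21-fold in pregnancy, more than the 1.71-fold rise with the state. ATP1B3, at 1.21-fold and 1.04-fold, and ATP1B1, at 1.16-fold and 1.32-fold, spanned least. DESeq2 gave 5 genes in place of 3 for the mare terms.

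How the subunits changed against each other can be read without their lengths, as a difference of log2 ratios within each mare. The log2 ratio of alpha was below that of gamma in all 4 mares, with SCNN1A minus SCNN1G at -0.38, -0.82, -0.91 and -0.27 (mean -0.60 ± 0.31, SD, n = 4). SCNN1A minus SCNN1B was below 0 in 3 mares (mean -0.28 ± 0.32, SD, n = 4), and SCNN1B minus SCNN1G likewise in 3 mares (mean -0.31 ± 0.42, SD, n = 4). An exact two-sided sign-flip permutation test over 4 mares has 16 sign patterns and counts at least 2 of them as equally extreme, so none of the 5 pairs of genes compared in this way can be called at 0.05. SCNN1A against SCNN1G reached that limit of 2 patterns, and the other ENaC pairs had 4. Adjusted over the 5 pairs by the Benjamini-Hochberg method, the exact permutation p was 0.208 for the first and 0.25 for the others. The fourth ENaC gene, SCNN1D, had 0 to 4 counts per library and was not tested.

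The beta subunits of the sodium pump moved in opposite directions. ATP1B1 (100033968), the beta subunit of most epithelia, had 275.8, 321, 303 and 291 CPM in the cyclic libraries of mares 1 to 4 and 234, 209, 230.3 and 275.7 CPM in the pregnant ones. Every mare was lower in pregnancy, and the groups lay side by side without overlap, the lowest cyclic and the highest pregnant library being nearly level. The log2 fold change was -0.33 ± 0.10 (SE; 95% interval -0.55 to -0.12; adjusted p = 0.0426). This call was a weak one, made in only 5 of 14 alternatives. It missed without mare 1 (0.111), mare 2 (0.122) or mare 3 (0.114). In the gene table used for names, ATP1B1 overlaps NME7, and as the library kit did not mark strand, reads of the shared part cannot be told apart. NME7 itself went from 23.8 ± 4.04 CPM in cyclic to 20.9 ± 1.97 CPM in pregnant libraries (SD, n = 4; adjusted p = 0.344).

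ATP1B3 (100062895), a beta subunit of wide expression, had cyclic levels of 25.6, 26.2, 30.9 and 26.1 CPM and pregnant levels of 36.1, 34.6, 34.7 and 34.6 CPM. All pregnant libraries were above all cyclic ones, and they differed little among themselves. Its log2 fold change was 0.37 ± 0.08 (SE; 95% interval 0.18 to 0.55; adjusted p = 0.0167). It was lost without mare 1 (0.0961), mare 2 (0.0514) or mare 4 (0.0508). A pseudogene listed within the ATP1B3 gene in the same gene table could share its reads.

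ATP1B1 minus ATP1B3, as a difference of log2 ratios, was below 0 in all 4 mares, at -0.73, -1.02, -0.57 and -0.48 (mean -0.70 ± 0.24, SD, n = 4; exact permutation p adjusted over the 5 pairs 0.208). The CPM of ATP1B1 divided by that of ATP1B3 ran from 9.82 to 12.3 in the cyclic libraries and from 6.05 to 7.97 in the pregnant ones, with no overlap. This quotient is not corrected for gene length, so its change can be read but not its level. As ATP1B1 fell and ATP1B3 rose in every mare, both without overlap of the groups, these signs and this gap follow from the levels above. They add no support.

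ATP1B2, a beta subunit known from glia and muscle, rose from 3.62 ± 1.39 to 5.71 ± 1.42 CPM (adjusted p = 0.0242). That call was lost in DESeq2 (0.0514), in the fit with no mare block (0.310) and without mare 1 (0.117), mare 2 (0.0665) or mare 3 (0.0563). ATP1B4 had at most 7 counts in any library and was not tested.

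**Figure D2:**
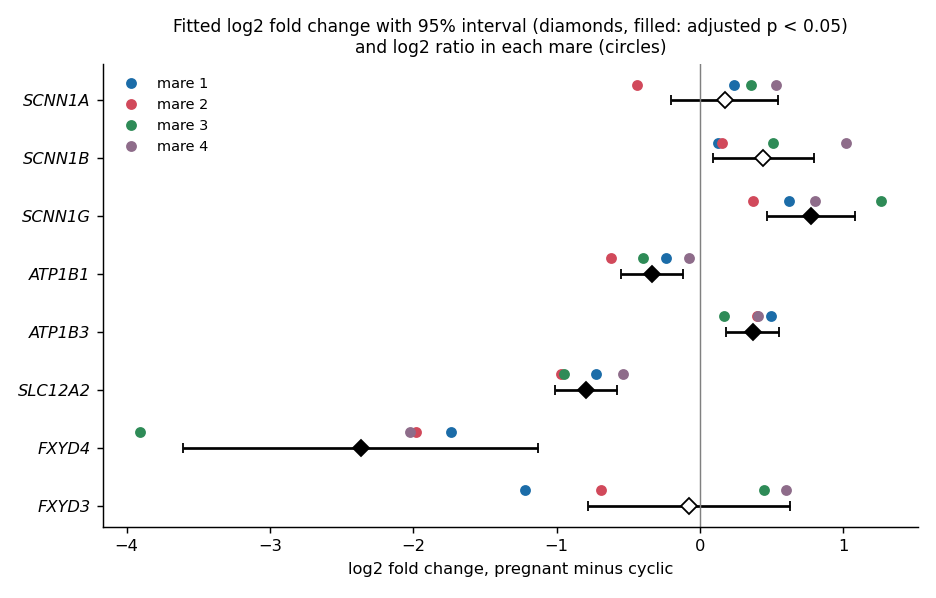
Log2 fold change of pregnancy over the cycle for the 8 tested genes, with the fitted value and its 95% interval as diamonds (filled where the adjusted p was below 0.05) and the log2 ratio of each mare as circles. FXYD4 is farthest from 0 and has the widest interval, from -3.61 to -1.13, and the mares of FXYD3 lie on both sides of 0.

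FXYD4 (100629797), also called corticosteroid hormone-induced factor, is known to raise the affinity of the pump for sodium in kidney collecting duct and colon. It had 24.2, 61.8, 48.9 and 26.6 CPM in the cyclic libraries and 7.26, 15.7, 3.26 and 6.57 CPM in the pregnant ones. The lowest cyclic library was above the highest pregnant one, and mare 3 fell most, with a log2 ratio of -3.90 against -1.74 to -2.02 in the other mares. The log2 fold change was -2.37 ± 0.44 (SE; 95% interval -3.61 to -1.13; adjusted p = 0.0423). FXYD4 kept its direction in 14 of 14 alternatives and its call in 9. Without mare 1, 2 or 4 the log2 fold change was -2.56, -2.54 and -2.49, with an adjusted p of 0.114, 0.136 and 0.143, and without the low-count filter the adjusted p was 0.0767. Without mare 3 it was -1.93 (adjusted p = 1.27e-04). In the gene table used for names, a long noncoding RNA that is no row of the counts overlaps FXYD4, and the same holds for SCNN1A.

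FXYD3 (100630666), which is known from several epithelia and their tumours, had cyclic levels of 4.64, 2.70, 4.16 and 5.82 CPM and pregnant levels of 1.99, 1.68, 5.68 and 8.82 CPM. It was lower in pregnancy in mares 1 and 2 and higher in mares 3 and 4, and the groups overlapped. Its log2 fold change was -0.08 ± 0.30 (SE; adjusted p = 0.898), and the 95% interval from -0.78 to 0.63 spans a fold of 0.581 to 1.55. FXYD4 minus FXYD3, as a difference of log2 ratios, was below 0 in all 4 mares (mean -2.20 ± 1.68, SD, n = 4; exact permutation p adjusted over the 5 pairs 0.208). FXYD2 (100629801), the gamma subunit of the kidney pump, had 0 to 6 counts per library and 11 counts over the 4 libraries of either group, so no fold is given. Its count of 0 in the pregnant library of mare 4 allows up to 0.183 CPM.

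Another 3 FXYD genes rose. FXYD5, also called dysadherin, which weakens cell adhesion, rose from 13.6 ± 1.47 to 21.8 ± 2.38 CPM (SD, n = 4; adjusted p = 0.00169). FXYD1, phospholemman, the pump regulator of heart and muscle, rose from 11.3 ± 0.936 to 16.5 ± 2.23 CPM (adjusted p = 0.00725). FXYD6 rose from 43.7 ± 2.5 to 67.1 ± 16.4 CPM (adjusted p = 0.0129). In each of these genes every mare was higher in pregnancy. Of the 7 FXYD genes looked for, 5 were tested, of which 3 rose and FXYD4 fell, beside 8.53% of all genes higher and 8.19% lower. The calls of FXYD1 and FXYD6 were lost without mare 1 (adjusted p = 0.0503 and 0.0685) and without the mare block (0.0594 and 0.0680).

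SLC12A2 (100073036) had 966, 1762.7, 1019.9 and 929.9 CPM in the cyclic libraries of mares 1 to 4 and 585, 898.5, 528 and 640.0 CPM in the pregnant ones. Mare 2 was the highest in both states, and even her pregnant library lay below all 4 cyclic ones. The log2 fold change was -0.80 ± 0.10 (SE; 95% interval -1.01 to -0.58; adjusted p = 0.00100). In the fits without 1 mare it ran from -0.88 to -0.75, with the highest adjusted p at 0.00894. Among the 8 tested genes, FXYD4, ATP1B1 and SLC12A2 had groups that did not overlap with pregnancy lower, and ATP1B3 with pregnancy higher, against 4.73% and 6% of all genes.

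SLC12A2 belongs to the family of cation and chloride cotransporters, of which 7 of 9 were tested. It alone among them passed. SLC12A7, a potassium and chloride cotransporter, had a mean of 364 ± 37.6 CPM in cyclic and 373 ± 32.6 CPM in pregnant libraries (SD, n = 4; adjusted p = 0.768), and SLC12A1, the kidney relative of SLC12A2, had at most 1 count in a library. SLC12A7 and SLC12A1 were chosen after their values were seen. Of the 11 genes of the WNK and STK39 kinase pathway, which switches SLC12A2 on by phosphorylation, 1 changed: the kinase WNK2 fell from 224 ± 17.7 to 184 ± 19.2 CPM (adjusted p = 0.0383). WNK2 missed with library totals (0.0688), by likelihood ratio (0.0870), with the mare block dropped (0.173), and without mare 1 (0.186), mare 3 or mare 4 (both 0.103).

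Genes that regulate ENaC were followed in lists drawn up by function. Of 8 tested genes for proteases that cleave the channel and for their inhibitors, 1 rose. This was TMPRSS4, a membrane serine protease known to activate ENaC, with cyclic levels of 0.258, 0.189, 0.372 and 0.186 CPM and pregnant levels of 2.68, 1.35, 0.900 and 1.07 CPM. Its log2 fold change was 2.47 ± 0.41 (SE; adjusted p = 0.00392). The cyclic libraries held only 3 to 6 counts each, so the size of the fold is poorly known. TMPRSS4 passed the filter on low counts through its pregnant libraries alone, with 16 to 27 counts. A call could therefore hardly be lower in pregnancy, and groups without overlap add no support. With a filter of at least 1 CPM in 4 libraries, TMPRSS4 was removed before testing, and 0 genes of this list were called. PRSS8, the channel-activating protease prostasin, had 70.6 ± 4.50 and 71.7 ± 6.73 CPM (SD, n = 4; adjusted p = 0.897). PRSS8 was chosen after its values were seen.

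Of 11 tested genes for ENaC turnover and trafficking, 0 passed in edgeR (2 at an unadjusted p under 0.05), in DESeq2 or in limma-voom. Those with the highest CPM were TSC22D3, the glucocorticoid-induced leucine zipper, with a mean of 723 ± 194 CPM in cyclic and 883 ± 86.4 CPM in pregnant libraries (adjusted p = 0.165), and the 14-3-3 protein YWHAE, at 317 ± 24.5 and 284 ± 25.2 CPM (adjusted p = 0.168). Without mare 2, TSC22D3 passed (adjusted p = 0.0205). SGK1, the kinase that keeps ENaC at the surface, was chosen after its values were seen. It was higher in pregnancy in 4 of 4 mares, at 60.4 ± 23.6 and 99.0 ± 21.7 CPM, but its 95% interval ran from -0.11 to 1.65 on the log2 scale (adjusted p = 0.206).

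In the corticosteroid axis, 2 of 7 tested genes fell. HSD11B2, the enzyme that inactivates cortisol and so leaves the mineralocorticoid receptor to aldosterone, had cyclic levels of 16.0, 20.7, 13.3 and 22.2 CPM and pregnant levels of 10.6, 10.1, 10.7 and 9.59 CPM, with no overlap (adjusted p = 0.00810). FKBP4, a cochaperone of steroid receptors, fell from 379 ± 50.4 to 303 ± 42.4 CPM (adjusted p = 0.0233). FKBP4 missed with library totals (0.0588), by likelihood ratio (0.0811), with the mare block dropped (0.234), and without mare 1 (0.0825) or mare 4 (0.0847).

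Of 14 tested genes for sodium exchange against protons and cotransport with bicarbonate, 1 rose, the scaffold NHERF2, from 54.8 ± 2.92 to 69.8 ± 6.31 CPM (adjusted p = 0.00825; 0.0591 without mare 1 and 0.0738 without the mare block). Of 7 tested potassium channels of epithelia, 1 fell, KCNK5, a channel of the tandem-pore family, from 38.5 ± 6.97 to 30.1 ± 6.91 CPM (adjusted p = 0.0335). The call of KCNK5 was lost with library totals (0.0844), without the mare block (0.349), and without mare 1 (0.0914), mare 2 (0.113) or mare 3 (0.109). Apart from the genes described first, the 10 lists held 70 tested genes, of which 6 rose and 4 fell, or 14.3%, near the 16.7% of all genes, and their median log2 fold change was 0.01. Of all genes called in these lists, FXYD5, TMPRSS4 and HSD11B2 were the 3 that also passed with the mare block dropped. TMPRSS4 was tested there only because its pregnant libraries passed the filter on low counts.

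**Figure D3:**
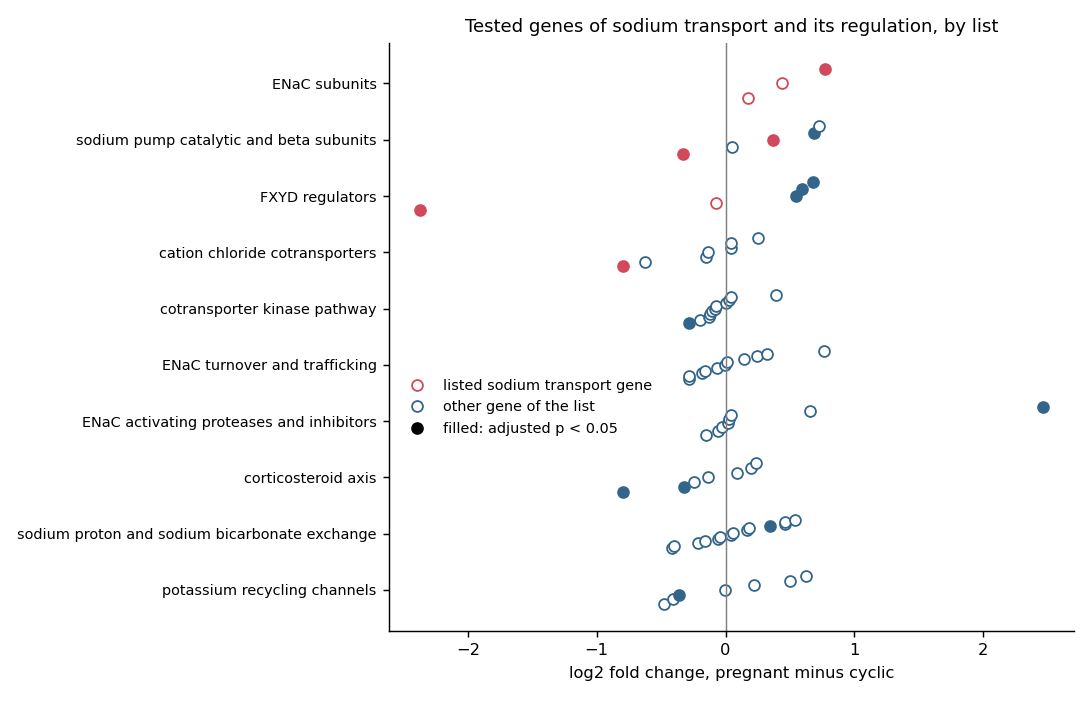
Log2 fold change of pregnancy over the cycle for each tested gene of 10 lists of sodium transport and its regulation, 1 circle per gene, red for the 8 tested genes the text opens with and blue for the others, filled where the adjusted p was below 0.05. Most of the 70 blue circles lie near 0 and are open, and the farthest are TMPRSS4 at 2.47 and HSD11B2 at -0.80.

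The pattern of FXYD4 over the 8 libraries was most like that of RAB4B, a small GTPase of endosomes (Pearson r of log2 CPM 0.978), GAMT, an enzyme of creatine synthesis (0.973), the kinesin KIF3A (0.971) and NKIRAS1 (0.969), out of 12711 genes compared. All 4 had a lower mean in pregnancy, by much smaller steps than FXYD4, with log2 fold changes from -0.65 to -0.35. For SCNN1G the closest were the plexin PLXNB2 (0.985), TRANK1 (0.975), WDR81 (0.974) and CALCOCO1 (0.966). Their log2 fold changes ran from 0.09 to 0.33, all smaller than that of SCNN1G. TRANK1 and CALCOCO1 passed in edgeR, while PLXNB2 (adjusted p = 0.212) and WDR81 (0.353) did not. Among the genes described here, the highest r was that of FXYD4 with SLC12A2 (0.931), followed by SCNN1B with SCNN1G (0.916), and the lowest was that of ATP1B3 with SLC12A2 (-0.75). These are descriptions over 8 libraries that share mares and states.

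Cell type markers moved between the same libraries. The epithelial marker EPCAM had a mean of 538 ± 21.9 CPM in cyclic and 508 ± 43.7 CPM in pregnant libraries (SD, n = 4; adjusted p = 0.545). Of 13 tested epithelial markers, 4 fell (KRT7, KRT18, ESR1 and ESRP2) and none of the others passed in edgeR, DESeq2 or limma-voom. The log2 fold change was below 0 for 11 of the 13, and above it for CLDN4 (0.57) and CDH1 (0.18). The summed level of the 13 was 2352 to 2745 CPM in the cyclic libraries and 2032 to 2312 CPM in the pregnant ones. All 8 endothelial markers rose, with sums of 485 to 697 and 866 to 1441 CPM. Of smooth muscle and pericyte markers 4 of 7 rose, with sums of 201 to 375 and 379 to 601 CPM. Of stromal markers 4 of 8 rose, with overlapping sums of 2921 to 4428 and 3471 to 4003 CPM. The most abundant stromal markers, COL1A1 and COL1A2, had lower means in pregnancy and did not pass. Their means were 1484 and 1283 CPM for COL1A1 (adjusted p = 0.658), and 1558 and 1351 CPM for COL1A2 (0.486). Of 8 tested immune markers 4 rose, with sums of 121 to 188 and 156 to 194 CPM. Ciliated cell markers rose in 1 of 7 cases, with sums of 147 to 361 and 187 to 329 CPM, and 0 of 4 nerve and glia markers passed in edgeR (1 at an unadjusted p under 0.05), in DESeq2 or in limma-voom, with sums of 3.27 to 6.15 and 5.99 to 6.46 CPM. Of the erythrocyte genes, ALAS2 and SLC4A1 had 0 counts in all 8 libraries and HBB no more than 2, while GYPC, the 1 tested, rose from 4.95 ± 0.528 to 8.61 ± 0.875 CPM (SD, n = 4; adjusted p = 0.00494). AHSP also had no more than 2 counts in a library, so the sums of these genes, 4.52 to 5.60 and 7.52 to 9.60 CPM, were nearly all GYPC. The part of these shifts in the rises of FXYD1, FXYD5, FXYD6, ATP1B2 and ATP1B3 was not tested.

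For the falls, the median log2 ratio of the 13 epithelial markers in each mare can be set beside the genes. It was -0.14, -0.28, -0.14 and -0.07 in mares 1 to 4. Relative to it, FXYD4 was at -2.25 ± 1.02 and SLC12A2 at -0.64 ± 0.14 (mean log2 ratio ± SD, n = 4), each below 0 in every mare. ATP1B1 came to -0.17 ± 0.15, about level with the markers in mare 4 at -0.00795. On the same footing SCNN1G was at 0.92 ± 0.33 and ATP1B3 at 0.53 ± 0.17. The part of cell type shifts in the falls, and in the rise of SCNN1G, was not tested.

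**Figure D4:**
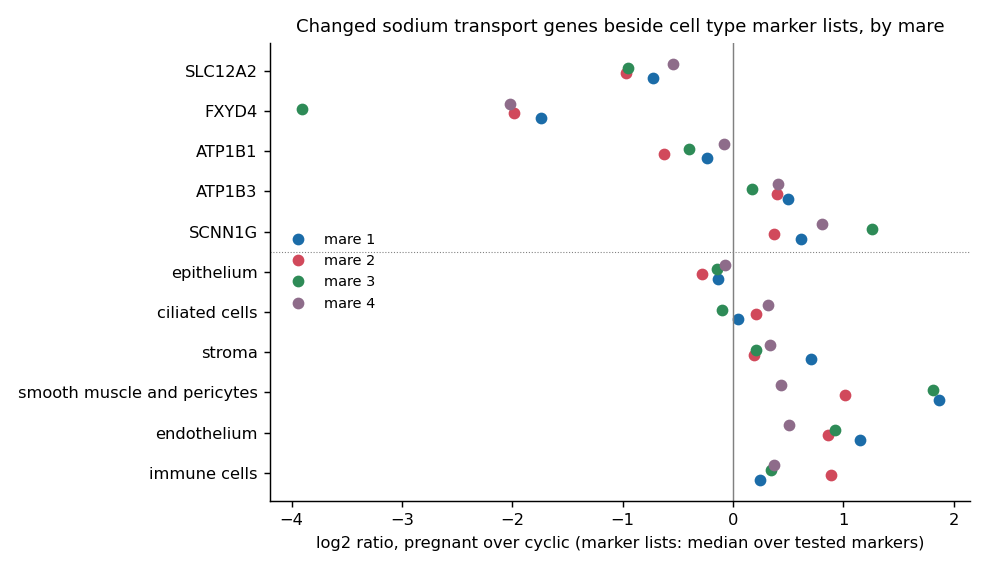
Log2 ratio of the pregnant over the cyclic library in each mare (circles) for the 5 sodium transport genes that changed, above the dotted line, and the median log2 ratio over the tested markers of 6 cell type lists, below it. Epithelial medians lie between -0.28 and -0.07 and endothelial medians between 0.51 and 1.15, with FXYD4 and SLC12A2 to the left of the epithelial markers in all 4 mares.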

How the data were processed

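The authors deposited raw read counts per NCBI Gene ID, made with Trimmomatic 0.32.2 and HISAT2 2.0.3 per the submitters' processing notes. How reads were counted, and on which genome build and annotation, is not given in the sources used here. A second deposited table of 14037 genes holds scaled signal values. In 8 of 8 libraries each equals the count times 1 constant, within a relative tolerance of 1e-06. It served for 2 alternatives. Unused columns of sample values number 0. Symbols came from a RefSeq gene table of the TB-T2T assembly (21420 of 24942 IDs matched), from which no coordinates are printed.

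Genes were filtered in edgeR 4.0.16 (R 4.3.3) by filterByExpr with a minimum count of 10, scaled by TMM and tested with the quasi-likelihood F-test, robust, with the mare in the model and Benjamini-Hochberg adjustment over 15342 genes. A gene rose, fell or passed at an adjusted p below 0.05. SE is the log2 fold change divided by the square root of F. The mare is the block because the series' design text states that every mare gave both samples. Deviations from the group means correlated within mares (r across genes 0.54, 0.38, 0.48 and 0.47, against at most -0.02 between mares). Subtracting the group means itself pushes the values between mares below 0 where those within mares are above it. Libraries of a group all differed by more than sampling noise (lowest chi-square per degree of freedom 24.6). Alternatives used DESeq2 1.42.0, limma 3.58.1, other scalings and filters, and fits without 1 mare. The fit was tested on simulated data.

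The genes and lists were chosen with earlier results of these data known. Named from each list were up to 4 called genes with the smallest p, or the 2 most abundant where none was called. Genes named outside this rule are marked or are untested, overlapping or marker genes. The likeness search took the called genes with the largest fall and rise, and named 4 genes each by Pearson r among genes that carry a symbol, average 1 CPM or more and have no library at 0, this last being added later. A count of 0 allows up to 3 counts, 0.180 to 0.306 CPM per library, for counting error only. Some genes of the lists are not reported here.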

Additional observations from a re-analysis of the deposited data

Results flagged for a closer look

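Of 62 groups of 4 values examined for the genes named, 6 had 1 value far from the other 3. Chance alone sets apart about 1 group in 20. Mare 1 stood apart in the cyclic SCNN1G level (51.6 CPM, against 11.8 to 18.1 CPM in the others), and mare 2 in the cyclic SLC12A2 level (1762.7 CPM). The FXYD4 log2 ratio of mare 3 (-3.90) lay below those of the other mares. For ATP1B3, mare 3 stood apart in the cycle (30.9 CPM) and mare 1 in pregnancy (36.1 CPM), the latter within a narrow range. The FKBP4 log2 ratio of mare 4 was set apart at -0.50.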

How the results depend on the processing

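With the mare dropped as replicate block, 389 genes in place of 2565 passed over all genes, 3 in place of 15 over the 10 lists, and 0 in place of 5 of the sodium transport genes, with log2 fold changes of 0.76 for SCNN1G, -2.30 for FXYD4, -0.33 for ATP1B1, 0.36 for ATP1B3 and -0.82 for SLC12A2. Fits without 1 mare gave 1266 to 2057 genes and 5 to 13 over the lists, both lowest without mare 1. They called 2 to 4 of the sodium transport genes (2 without mare 1, 3 without mare 2 or mare 4). The 3 without mare 2 were SCNN1G, SLC12A2 and SCNN1A, the last not called with all mares. Log2 fold changes in these fits were 0.0521 to 0.36 (SCNN1A), 0.26 to 0.56 (SCNN1B), 0.60 to 0.88 (SCNN1G) and -2.56 to -1.93 (FXYD4). The others were -0.42 to -0.25 (ATP1B1), 0.32 to 0.43 (ATP1B3), -0.88 to -0.75 (SLC12A2) and -0.38 to 0.21 (FXYD3). SLC12A2 and SCNN1G passed in 13 of 14 alternatives. ATP1B1 missed with library totals (-0.30), the likelihood ratio test (-0.33), limma-voom (-0.33) and limma-trend on the deposited values with pseudocounts of 1 (-0.33) and 0.25 (-0.33). FXYD4 missed without the low-count filter (-2.38), and SCNN1B passed in DESeq2 (0.44) and the likelihood ratio test (0.44). FXYD3, never called, changed sign without the block (0.0882), in limma-voom (0.0844) and without mare 1 (0.21) or mare 2 (0.0754). DESeq2 called 5 genes for differences between mares. Chosen after seeing the data, the value relative to epithelial markers was 0.53 for ATP1B3. The cause was not tested for any of these, beyond the fewer samples in fits without a mare. FXYD2, with 0 to 6 counts in any library, is below what this depth can compare.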
